A study of Drosophila melanogaster with 4 samples.

Results

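Broad domains of the histone mark H3K9acS10P were described on the chromosome arms 2L, 3L and 3R of Drosophila melanogaster embryos. A broad domain is a region of the authors' series-level list of enriched regions that spans 6000 bp or more and has its midpoint on 2L from 1000001 to 21011544, on 3L from 1000001 to 22543557 or on 3R from 1 to 26905053 (FlyBase r5). The rule leaves out 1 Mb at the telomere-facing end of each arm and 2 Mb at the centromere-facing ends of 2L and 3L. The rule found 437 domains among the 8686 regions of any width on these stretches and the 15374 regions of the whole list. The members were thus chosen by their width in the series-level list, and width is described and not tested.

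The samples were wild-type embryos of the Oregon-R strain, 14 to 16 h into development, with no treatment. An antibody against H3K9acS10P, of a single lot, was used for 2 ChIP samples, and the labels name 1 of 2 input samples for each. The lists of ChIP replicate 1 and ChIP replicate 2 were used beside the series-level list. The labels do not tell whether the embryos of the replicates were collected separately, and the input samples were not analysed here. Whole embryos were used, so a mark on more cells and more mark per cell cannot be told apart.

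H3K9acS10P is a double modification of the tail of histone H3, with an acetyl group on a lysine and a phosphate on the serine next to it. Acetylation of this lysine is known from the promoters and 5′ parts of transcribed genes. Phosphorylation of the serine is known from condensed mitotic chromosomes, where the kinase Aurora B places it, and in interphase fly chromatin from the kinase JIL-1, which binds along transcribed genes. A region many kilobases long can hold marked nucleosomes over 1 long gene or over several neighbouring genes. No gene annotation of the r5 build was used here, so each domain is given by its position, with no gene name.

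The domains were a small part of the regions and a larger part of the marked bases. They made up 5.03% of the regions on these stretches and held 18.0% of the bases in regions, 3.69 Mb in all. That was 5.39% of the stretches, against 30.0% for regions of any width. 3R held 188 domains, 2L held 122 and 3L held 127. Per Mb of stretch these numbers were 6.99 on 3R, 6.10 on 2L and 5.90 on 3L. The domains covered 1.56 Mb of 3R, 1.06 Mb of 2L and 1.07 Mb of 3L. The same width rule found 285 regions in replicate 2 and 17 in replicate 1, so the number of domains depends on the list.

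Most domains were only moderately wider than the minimum. The median width was 7566 bp, and the middle of the distribution lay between 6574 and 9382 bp (lower and upper quartiles). Widths of 6 to 8 kb were found in 245 domains, 8 to 10 kb in 102, 10 to 15 kb in 79 and 15 kb or more in 11. The arms had medians of 7984 bp (2L), 7413 bp (3L) and 7491 bp (3R), and their quartiles overlapped. The minimum marked no step in the list. The widest regions left out were 5988, 5992 and 5996 bp wide with scores of 0.538, 0.740 and 0.879, and the narrowest members were 6006, 6008 and 6012 bp wide with scores of 0.563, 0.674 and 0.790. The 231 regions of 5000 to 5999 bp had 45.7% of their bases in replicate 1 regions and 87.3% in replicate 2 regions. The 156 domains of 6000 to 6999 bp had 45.3% and 90.1%.

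**Figure D1:**
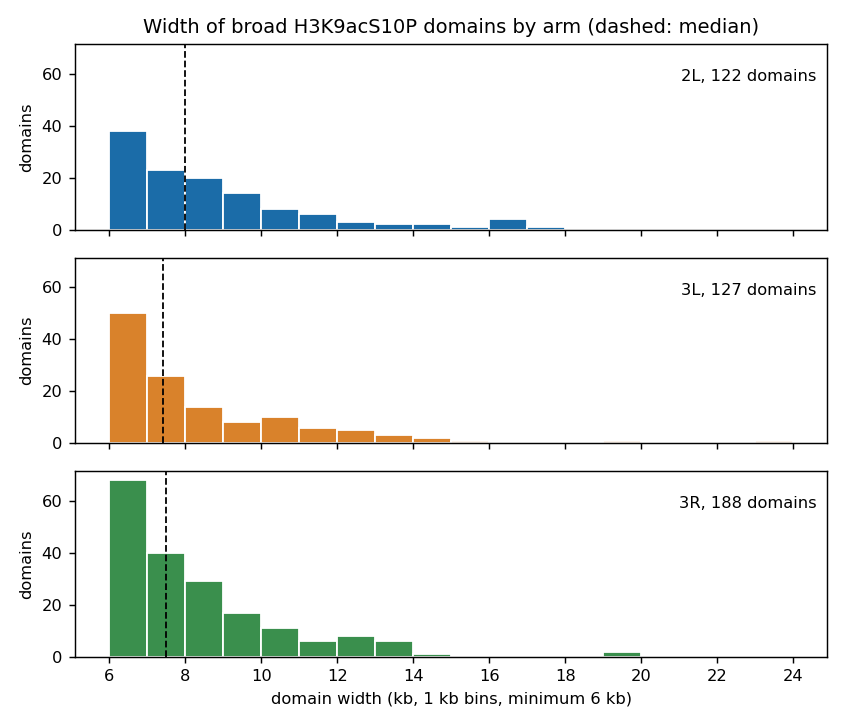
Histograms of domain width in kb, in 1 kb bins, for the 122 domains of 2L, the 127 of 3L and the 188 of 3R, with a dashed line at each median. In each arm the first bin above the minimum is the fullest, and the widest domain, of 23.4 kb, lies on 3L.

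The replicates marked the domains to different extents. Replicate 2 had a region in all 437 domains (95% Wilson interval 99.1 to 100%), and replicate 1 in 378, or 86.5% (83.0 to 89.4%). Of all 8686 regions on the stretches, 62.8% had a region of replicate 2, 25.3% a region of replicate 1 and 22.5% both. A wide region meets any other list more often, so nothing was read from these counts. Measured in bases, 91.4% of the domain bases lay in replicate 2 regions and 45.5% in replicate 1 regions, a mean of 68.4% ± 32.5 (SD, n = 2). Over the narrower regions of the same stretches the shares were 65.2% and 23.0%. In those of 4 to 6 kb they were 86.9% and 43.4%, close to the values in the domains. How the series-level list was made from the replicates is not known here, so they were not taken as independent of it and neither difference was tested.

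Within the domains, most bases in replicate 1 regions also lay in replicate 2 regions. Replicate 2 covered 91.4% of all domain bases, so a large overlap follows from that coverage and nothing was read from it. Of the domain bases, 43.3% were in regions of both replicates, 48.1% in replicate 2 alone, 2.11% in replicate 1 alone and 6.46% in neither. The replicate 2 share of single domains ran from 38.4 to 100%, with a median of 94.6%. The replicate 1 share ran from 0 to 98.0%, with a median of 49.6%. Replicate 2 had the higher share in 431 domains and replicate 1 in 6. The Spearman rho of the 2 shares across the 437 domains was 0.087, a description of domains that share libraries, with most replicate 2 shares close to their upper limit. Replicate 2 also had more regions on these stretches, 5801 against 2490, and covered 22.2% of their bases against 8.37% in replicate 1. The part of this overall difference in the shares of single domains was not tested.

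**Figure D2:**
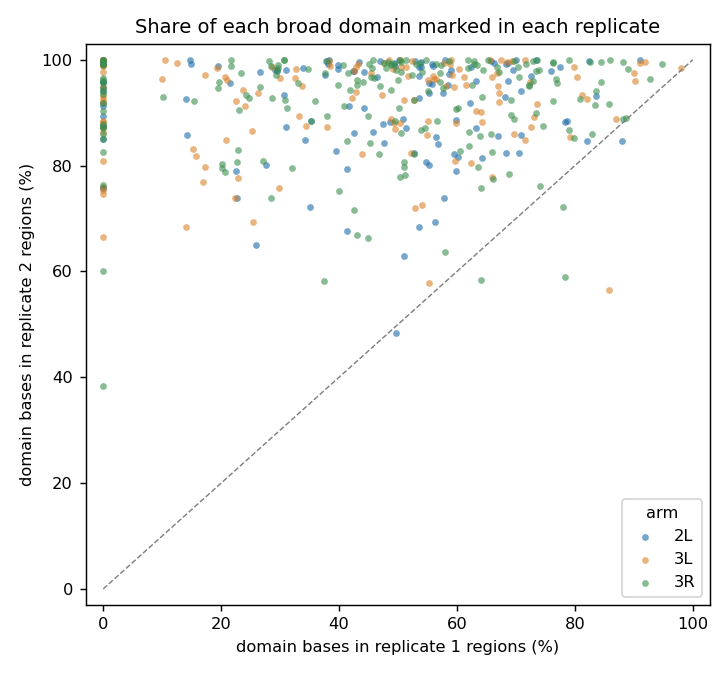
Each of the 437 domains by the percentage of its bases in replicate 1 regions (x axis) and in replicate 2 regions (y axis), coloured by arm, with a dashed line where the shares are equal. Nearly all points lie above the line, in the upper part of the plot, while their x values spread from 0 to 98.0%.

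The position of replicate regions within the domains was described along a common scale. When each domain was scaled to 20 bins, replicate 1 regions covered 51.9% of the 2 middle bins on average and 17.7% of the 2 outermost bins. For replicate 2 the values were 95.8% and 68.4%. A shorter region inside a longer one covers its middle more often than its ends by geometry, so nothing about the mark is read from this shape. The outer ends of the replicate 2 regions lay within 500 bp of the domain's end at 696 of 874 ends, with a median of 41 bp inside the domain. For replicate 1 this was so at 265 of 756 ends, with a median of 1218 bp inside. Replicate 2 thus matched both ends of a domain within 500 bp in 278 of 437 domains, and replicate 1 in 40 of the 378 domains it marked. The series-level ends may derive from these same libraries.

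**Figure D3:**
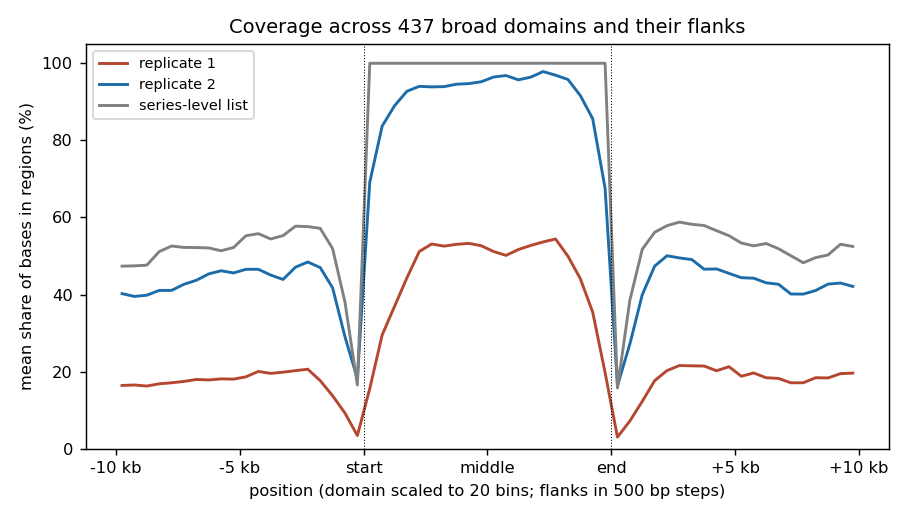
Mean percentage of bases in regions along the 437 domains, each scaled to 20 bins between start and end, and in 10 kb on each side in steps of 500 bp. The series-level line is at 100% inside by definition. Replicate 2 reaches 95.8% and replicate 1 51.9% in the middle, and all lists dip just outside the ends before rising to the level of the flanks.

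The surroundings of the domains were themselves densely marked. In the 10 kb on each side, 50.7% of bases on average lay in other series-level regions, against 35.0% beside narrower regions and 30.0% of the stretches as a whole. Within replicate 2 the flanks of domains were covered to 42.0%, and within replicate 1 to 17.2%, against 26.0% and 9.68% beside narrower regions. Among narrower regions this value rose with width, to 38.3% in replicate 2 and 15.4% in replicate 1 beside those of 4 to 6 kb. In the series-level list it was 30.8% beside regions under 2 kb, 41.4% beside those of 2 to 4 kb and 47.6% beside those of 4 to 6 kb. In the 500 bp next to a domain coverage was 16.1%, a dip that the end of a called region sets by itself. The nearest region of any width began a median of 500 bp away. In 219 of the 437 domains, or 50.1%, it was 500 bp away or less, so many borders were short breaks between marked regions. The share was 34.3% over all regions on the stretches and 45.7% in those of 4 to 6 kb. Such short breaks were thus not particular to the domains. Joining regions 500 bp or less apart raised the number of domains to 753 and their bases to 7.26 Mb.

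Some domains lay close to each other, while 274 had no other broad domain within 10 kb. The shortest gap between 2 domains was 4 bp. A share expected from the number of domains was not computed. In 163 of 437, or 37.3% (95% Wilson interval 32.9 to 41.9%), the edge of another broad domain was within 10 kb, while the median distance to the nearest one was 21.7 kb. These 163 formed 71 chains, of which 54 had 2 domains, 14 had 3, 2 had 4 and 1 had 5. Neighbouring domains are therefore not independent observations, and the intervals given here are too narrow. By the same rule in the lists of the replicates, the share was 30.2% of 285 regions in replicate 2 and 11.8% of 17 in replicate 1. This difference was not tested.

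The chain of 5 spanned 55.1 kb, from 3R 18537322 to 18592470. Its domains held 67.6% of this span and were 6085 to 9246 bp wide, with series-level scores from 0.611 to 0.804. Replicate 2 covered 88.6% of its domain bases and replicate 1 covered 43.3%. Replicate 1 coverage varied strongly from one domain of the chain to the next. It was 24.3% in the first domain, 79.8% in the second, 40.9% in the third and 66.1% in the fourth. The fifth, 3R 18583937 to 18592470, had no replicate 1 region, while replicate 2 covered 96.3% of it. The chains of 4 lay at 3L 1746133 to 1797751 and 3L 12493968 to 12530628. In the first, replicate 2 covered 99.8% of domain bases and replicate 1 covered 36.3%. In the second the shares were 95.5% and 65.1%.

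Along the arms, the density of domains changed from 1 Mb to the next. Over 67 full windows of 1 Mb there were 6.42 ± 4.02 domains per window (SD over windows), with a median of 6. The fullest window, 3R 1000001 to 2000000, held 16. Windows with 15 were 2L 4000001 to 5000000, 3R 11000001 to 12000000 and 3R 25000001 to 26000000. Only 1 window held no domain, 2L 7000001 to 8000000, although 20.8% of its bases lay in narrower regions. The 12 windows with 10 or more domains held 157 of them. Domain number and the coverage by narrower regions had a Spearman rho of 0.57 over the 67 windows, and 0.48 on 2L, 0.48 on 3L and 0.73 on 3R. Windows share the libraries and the caller, so rho is a description. The 2L window at 4000001 had 15 domains with 18.2% of its bases in narrower regions. The 3R window at 22000001 had 1 domain with 24.8%. These windows were chosen after their values were seen.

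**Figure D4:**
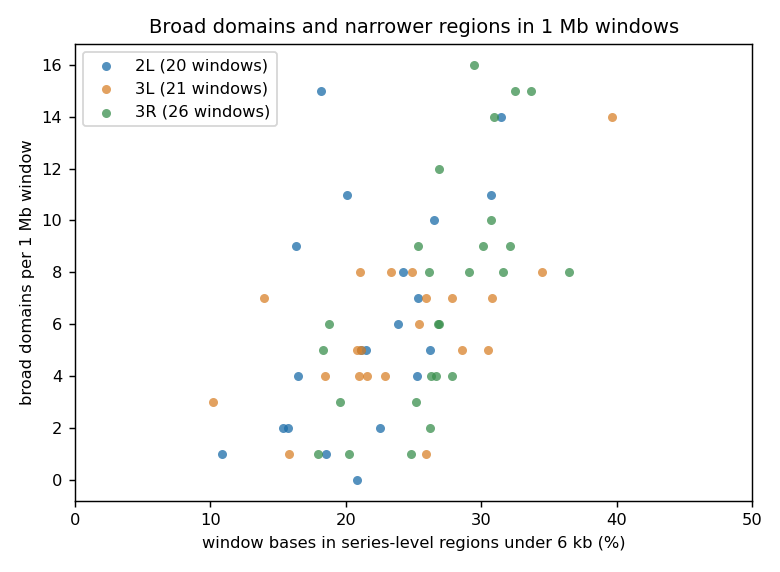
Number of broad domains in each of 67 full 1 Mb windows (y axis) against the percentage of the window's bases in regions under 6 kb (x axis), coloured by arm. Counts run from 0 to 16, and windows with similar narrow coverage differ widely in the number of domains.

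In replicate 2 a domain most often held a single region, and the regions of replicate 1 in a domain were shorter. Several regions were found in 163 domains for replicate 2 and in 179 for replicate 1. Replicate 2 had a single region in 274 domains, 2 in 137, 3 in 20, 4 in 4 and 5 in 2. Replicate 1 had none in 59 domains, 1 in 199, 2 in 137, 3 in 36 and 4 in 6. The mean over domains was 1.45 regions in replicate 2 and 1.38 in replicate 1. In 138 domains both replicates had exactly 1 region. Overlap by 1 bp was enough for this count. Among the domains with 4 replicate 1 regions, 3L 21020377 to 21028919 was only 8543 bp wide and had 67.5% of its bases in them, while 3R 12070876 to 12085562, of 14687 bp, had 69.7%. In both, the first of the 4 entered the domain by less than 50 bp. Replicate 2 marked each of these as a single region. Where there were several, the breaks between them inside the domain were shorter in replicate 2, with medians of 311 bp there and 960 bp in replicate 1. The longest replicate 1 region in a domain it marked had a median of 3007 bp inside that domain, and the longest replicate 2 region 6281 bp. Replicate 2 regions of 6000 bp or more overlapped 261 domains, or 59.7%, against 3.74% of all regions on the stretches. Replicate 1 regions of that width overlapped 17 domains, or 3.89%, against 0.207% of all regions. Width chose the members, so nothing is read from these counts.

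The same width rule was also applied to the replicate lists. Of the 285 broad regions of replicate 2 on the stretches, 262 overlapped a domain, against 10.9% of its 5801 regions of any width. In replicate 1 all 17 did, against 24.2% of its 2490 regions. Wide regions meet wide series-level regions by their length, so nothing is read from these counts. The other 23 of replicate 2 overlapped series-level regions whose widest was 3327 to 5988 bp. The widest regions of replicate 1 were 3L 5756725 to 5765994, of 9.27 kb, 2L 2747006 to 2756114, of 9.11 kb, and 2L 11997994 to 12006795, of 8.80 kb. The domains around them spanned 23.4, 11.6 and 17.9 kb. The widest of replicate 2, 2L 6470600 to 6495254, spanned 24.7 kb and joined 2 neighbouring domains, of 16731 and 8707 bp. The series-level list split that tract between 6487196 and 6487300, and replicate 1 covered 52.5% of it with 5 regions. The replicate 2 region 3R 12070855 to 12085526 also touched 2 domains, the first by only a few bases.

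The widest domain, 3L 5743177 to 5766596, spanned 23420 bp and scored 1.03. Replicate 1 had 2 regions in it, 5743358 to 5748021 and 5756725 to 5765994, which left 8703 bp between them. Replicate 2 had 4 regions, of which the last, 5755089 to 5766303, scored 1.49. The higher of the 2 replicate 1 scores, 1.16, also belonged to the right-hand region. The highest-scoring regions of the 2 replicates thus overlapped in this domain, from which no agreement is read.

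The next domain in width, 3L 15954523 to 15974093, spanned 19571 bp and scored only 0.526. Replicate 1 marked a single region of 3.31 kb there, or 16.9% of the bases, and replicate 2 marked 4 regions, or 76.9%. It was the domain of 15 kb or more with the least replicate 1 coverage. 3R 1284481 to 1303862 spanned 19382 bp and scored 0.993. Replicate 1 covered 62.9% of it in 3 regions and replicate 2 covered 99.2% in 2 regions that were only a few bases apart. 3R 19869070 to 19888300 spanned 19231 bp and scored 0.690. It was the most broken of the widest domains, with 4 regions in replicate 1 and 5 in replicate 2.

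The other 6 of the 10 widest were 15516 to 17853 bp wide, and 5 of them lay on 2L. 2L 11989105 to 12006957 was covered to 82.5% in replicate 1 by 3 regions and to 99.7% in replicate 2 by 1. 2L 6470466 to 6487196 had 4 regions in replicate 1 and 1 in replicate 2. 2L 1404406 to 1421007 had shares of 55.9% in replicate 1 and 98.8% in replicate 2. 2L 19031637 to 19047756 and 2L 5041904 to 5057976 had 4 regions each in replicate 1, with shares of 70.9% and 63.2%. 3L 2769137 to 2784652 had shares of 42.1% in replicate 1 and 92.8% in replicate 2. In each of the 10 widest, replicate 2 covered more than replicate 1.

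Scores of the domains lay mostly in the upper part of the list, where score also rose with width below the minimum, while width and score were nearly unrelated among the domains. Each region carries a score from the authors, whose scale is not stated in the labels or headers. The median over domains was 0.735, with a range from 0.427 to 1.61. The narrower regions of the same stretches had a median of 0.456 but reached 2.34. Their median was 0.427 under 2 kb, 0.514 at 2 to 4 kb and 0.650 at 4 to 6 kb, and it was 0.679 at 5000 to 5999 bp against 0.716 in the domains of 6000 to 6999 bp. High scores were thus shared with the regions just under the minimum. At or above the median of the whole list, 0.474, lay 425 of 437 domains, or 97.3%, against 44.0% of all regions on the stretches. Among domains the rank correlation of width and score was 0.12. Median scores were 0.698 at 6 to 8 kb, 0.778 at 8 to 10 kb, 0.755 at 10 to 15 kb and 0.815 at 15 kb or more.

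The 5 highest-scoring domains were not the widest. 2L 8040688 to 8053246 scored 1.61 and spanned 12.6 kb. Replicate 1 covered 43.4% of it and placed a score of 2.04 on its first 4 kb, from 8040815 to 8044797. Replicate 2 covered 99.6% with 1 region that scored 1.94. It opened a chain of 3, whose other domains, 8054154 to 8060379 and 8061252 to 8074142, scored 0.485 and 0.540. 2L 19003159 to 19010207 scored 1.57, with shares of 39.5% in replicate 1 and 82.8% in replicate 2. 3R 7038318 to 7050804 scored 1.48, with shares of 71.6% and 99.2%. 3L 7230868 to 7237875 scored 1.46 and was nearly filled in both, with 91.0% and 99.4%. 3R 25864465 to 25874250 scored 1.44, with 82.5% and 99.7%.

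**Figure D5:**
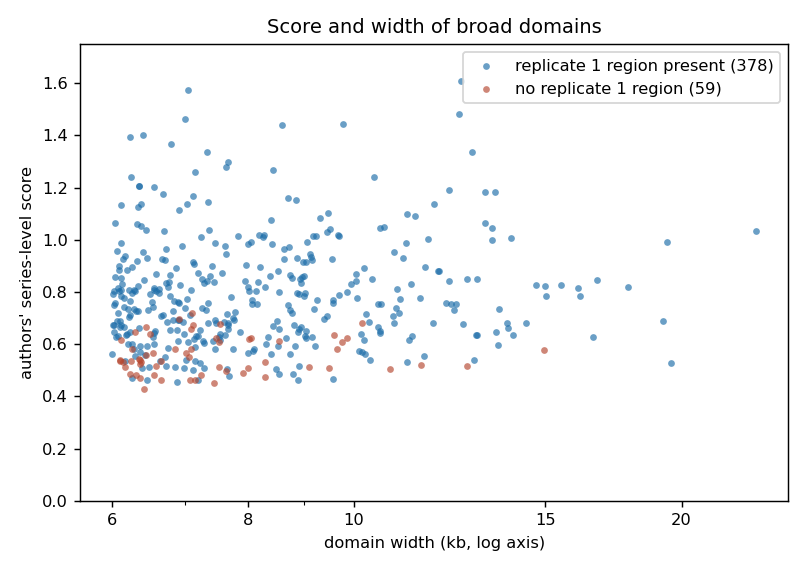
Series-level score (y axis) against width in kb (x axis, log) of the 437 domains, with the 59 that had no replicate 1 region in red. The red points lie between 0.427 and 0.719 in score and up to 14.9 kb in width, and the highest score, 1.61, is that of a domain of 12.6 kb.

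The highest-scoring regions of the replicates mostly overlapped within a domain, where overlap by 1 bp was enough. In 353 of the 378 domains with regions of both, or 93.4%, the highest-scoring region of replicate 1 overlapped that of replicate 2. Much of this follows from domains with a single long region in replicate 2. In the 76 domains with several regions in each replicate, the highest-scoring ones overlapped in 59. The overlap that the lengths of the regions alone would give was not computed, so no agreement is read from either count. The highest replicate scores in a domain had a Spearman rho of 0.71 across the 378, as a description. The highest-scoring region of replicate 2 was at or above the median of its own list in 421 of 437 domains, and that of replicate 1 in 285 of 378. The same share over all regions was not computed. The highest score had a median of 0.932 in replicate 2 and 0.889 in replicate 1. In series-level regions of 4 to 6 kb these medians were 0.839 and 0.784. Width chose the domains, so nothing is read from these counts. The midpoint of the highest-scoring region lay in the middle of 3 equal parts of the domain in 326 of 437 domains for replicate 2. For replicate 1 it did in 167 of 378. A region that fills most of a domain has its midpoint there by geometry, so no central placement is read from this.

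Domains without a replicate 1 region were low-scoring and were not limited to 1 arm. They numbered 16 of 122 on 2L, 19 of 127 on 3L and 24 of 188 on 3R. Of all 8686 regions on the stretches, 6487 had no replicate 1 region, and of the 665 regions of 4 to 6 kb, 164. Lack of a replicate 1 region was thus not particular to the domains. Scores of the domains without one ran from 0.427 to 0.719, with a median of 0.539, against 0.773 in the other 378. With the domains put in 4 classes of rising score, 45 of 110 had no replicate 1 region in the lowest class, 14 of 109 in the next and 0 of 109 in each of the upper classes. The median replicate 1 share over these classes went from 19.8% to 45.3%, 55.8% and 64.3%, and the median replicate 2 share from 87.7% to 94.3%, 95.2% and 97.0%. The series-level score may draw on the same reads, so this is a description.

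These 59 domains, chosen by the same width rule, were well covered in replicate 2. Their median width was 7091 bp, against 7670 bp in the others, and replicate 2 covered 90.0% of their bases against 91.6%. Replicate 2 regions of 6000 bp or more overlapped 31 of the 59, or 52.5%. This share was 60.8% in the other 378 domains and 3.74% over all regions on the stretches. Replicate 2 had a region in all 437 domains, and width chose the members. High replicate 2 coverage of these 59 follows from that, so nothing is read from these shares. Examples are 2L 3055828 to 3067347, of 11520 bp and 89.3% covered in replicate 2, and 2L 3362089 to 3368447, with 95.8%. 2L 3622252 to 3628350 had 84.9% and 2L 4211539 to 4218647 had 94.8%. In the chain from 2L 4479711 to 4525852, replicate 1 had no region in 2 of the 3 domains and covered 4.18% of the domain bases, against 90.8% in replicate 2. The first of them, 2L 4479711 to 4489580, was covered to 87.5% in replicate 2.

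The least covered domains in replicate 2 were few. 3R 24333517 to 24339827 had 38.4% of its bases in 1 replicate 2 region and none in replicate 1, so most of it was called in the series-level list alone. 2L 9599317 to 9606510 had shares of 48.4% in replicate 2 and 49.6% in replicate 1. 3L 13992800 to 14000091 had 56.5% in replicate 2 and 85.8% in replicate 1, the largest excess of replicate 1 among the 6 domains where it led. 3L 17956452 to 17966678 had 57.8% and 55.2%, and 3R 25117551 to 25126461 had 58.2% and 37.4%, in replicates 2 and 1. All 5 scored below the median of the domains.

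At the other end, some domains were filled in both replicates. 3L 16575255 to 16584735 spanned 9481 bp and was covered to 98.0% in replicate 1, by 2 regions close together, and to 98.5% in replicate 2. 3R 16399667 to 16407332 was a single region in each, with shares of 94.8% in replicate 1 and 99.2% in replicate 2. 3R 20449645 to 20456758 had 92.8% and 96.4%. 3L 9418321 to 9424876 had 91.9% and 99.5%. 2L 2764091 to 2771722 had 91.1% and 100%. These 5 were 6556 to 9481 bp wide and scored 0.916 to 1.30, above the median of the domains.

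Regions of 6000 bp or more on X were set beside the domains for scale, without a test. There were 209 of them on the whole X, or 9.32 per Mb against 6.38 on the 3 stretches, and their median width was 8237 bp against 7566 bp. Replicate 1 covered 50.8% of their bases and replicate 2 covered 94.2%, against 45.5% and 91.4% on the autosomal stretches. Their median score was 0.913 against 0.735. The number of replicate 1 regions per domain was 1.71 on X and 1.38 on the stretches, and in replicate 2 it was 1.34 and 1.45.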

How the data were processed

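The submitters' processing notes name Bowtie 0.12.7 as aligner, and coordinates are on FlyBase r5, per the file headers. Not given in the sources used here are the caller, its threshold, its use of the input and how the series-level list was made from the replicates. Each deposited list gives the first base, last base and the authors' score of each enriched region. The lists hold no read counts, so depth is unknown and intervals cover only the number of regions. Domains, overlaps (at least 1 bp) and covered bases were computed with pandas 2.3.3, NumPy 2.4.6 and SciPy 1.17.1 under Python 3.11.15, and the interval functions were tested on simulated data. Scores were compared only within a list. Coordinates are 1-based.

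The domains and measures were chosen with earlier results of these data known. No test was made, since width chose the members and with 2 replicates no test over samples can pass. Named domains are the 10 widest, the widest of each arm, the 5 with the highest score, with the lowest covered share in each replicate, with the highest share in both replicates (by the lower of the 2 shares) and with the most replicate 1 regions, the domains next to the width minimum and the longest chain. Others were chosen after their values were seen. Of the 59 domains with no replicate 1 region the first 5 by position were named. Alternatives were width minimums of 8000 and 10000 bp, scores at or above the list's median, merging at 500 bp, each replicate's list alone, 50% overlap, and other gaps and flanks.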

Additional observations from a re-analysis of the deposited data

How the results depend on the processing

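Of 52 recomputed values for 10 results, 24 moved by less than the spread used (1.5 times for a count, 1 SD between replicates, the Wilson interval of a share, or for the score 1 SD over domains) and 28 moved by more. Among the 24 are the covered shares with 1 replicate alone, which could not have moved by more, since each of 2 values lies within 1 SD of their mean. Also among them are the median scores at 8000 and 10000 bp, 0.772 and 0.766 against 0.735. The SD over domains gave a range of 0.520 to 0.950. Medians of subsets of the same domains could hardly have left it, so nothing is read from them. With 8000 and 10000 bp in place of 6000 bp there were 192 and 90 domains, covering 2.03 and 1.13 Mb, with median widths of 9704 and 11908 bp. Both replicates then overlapped 91.1% and 94.4% of domains in place of 86.5%, a broad replicate region overlapped 76.0% and 90.0% in place of 60.2%, the replicates had on average 1.68 and 1.84 regions per domain in place of 1.42, and 23.4% and 11.1% had another domain within 10 kb in place of 37.3%. Merging regions 500 bp or less apart gave 753 domains, 7.26 Mb, a median of 8572 bp and 52.7% with a neighbour, and merging replicate regions gave 1.19 per domain. With the list of 1 replicate alone there were 17 to 285 domains, 0.118 to 2.33 Mb, median widths of 6418 to 7341 bp and 11.8 to 30.2% with a neighbour, and the covered share of domain bases was 45.5 to 91.4%. At least 50% of the bases lay in regions of each replicate in 49.9% of domains. Within 5 and 20 kb, 24.9% and 47.8% had a neighbour. A score at or above the list's median moved none of the 10 results by more than its spread. It left 425 of 437 domains, so it could hardly have moved them. The SD between replicates was 32.5 percentage points for covered shares and 17.6 for flank coverage, so small moves there say little. No paired analysis was possible because the numbers shared by ChIP and input samples belong to no comparison here, and no list of the input samples was used. Read depth, which could limit replicate 1, cannot be read from these lists.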
